A study of Mus musculus with 6 samples.

Results

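Arid3a peaks were examined around 10 mouse genes of pericellular proteolysis: the cathepsins Ctsb, Ctsd, Ctsk, Ctsl, Ctss and Ctsz, the cathepsin inhibitor gene Cst3 (cystatin C), and Plau, Plat and Plaur of the plasminogen activation system. The genes were taken by name, with no threshold on a measured value, although earlier results of these data were known when they were chosen. A peak belonged to a gene if at least 1 bp of it overlapped the RefSeq gene body in mm10 (GRCm38.p6) or the 10 kb on either side. All 10 genes matched the gene table, and their windows, 9 once the adjoining ones of Ctsk and Ctss are joined, covered 343.7 kb. Peaks of all libraries that overlapped by at least 1 bp were merged into 79295 union regions over the genome, of which 46 lay in these windows. Each library contributed 29 to 37 of these peaks.

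Cathepsins are proteases of the lysosome that can also be secreted. Most are cysteine proteases, cathepsin D is an aspartic protease, and cystatin C is a secreted inhibitor of the cysteine cathepsins. Urokinase (Plau) and tissue plasminogen activator (Plat) cleave plasminogen into plasmin, and the urokinase receptor (Plaur) holds urokinase at the cell surface. In the vessel wall these enzymes are known for breaking down elastin, collagen and other matrix proteins, a process studied in aortic aneurysm. Arid3a is a DNA-binding protein of the ARID family.

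The assay was CUT&Tag, in which an antibody directs a transposase to a protein on chromatin and the DNA cut around it is sequenced. All 6 libraries were made with an Arid3a antibody from 10000 primary mouse vascular smooth muscle cells each. Their labels name the siRNAs si-Arid3a#1, si-Arid3a#2 and si-Arid3a#3 (siRNA-labelled libraries 1, 2 and 3, with 1 library per siRNA) and negative control (NC-labelled libraries 1, 2 and 3). Cells were given siRNA for 24 h by transient transfection. Strain, sex and age of the mice are not in the labels. The protocol describes a model of aortic aneurysm with angiotensin II for 36 h, but the labels do not assign that exposure to any library. No library without the antibody was analysed here, so a peak is not shown to be Arid3a binding. Nothing in the labels ties the NC-labelled libraries to separate cultures. A p-value here measures the spread among 6 libraries, and among the NC-labelled ones that spread may be technical only. Among the siRNA-labelled libraries it also holds any difference between the siRNAs. The tests treat these siRNAs, with 1 library each, as 1 group, so an effect of a single siRNA cannot be told from the spread.

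The naming of individual peaks conflicts with the labels in all 6 lists: peaks of NC-labelled library 1 are named after siRNA 1 and those of siRNA-labelled library 1 after NC 1, with the same swap for numbers 2 and 3. The grouping used here follows the labels. Were the peak names correct instead, each difference between groups would have the opposite sign. The lists held 43834, 50333 and 51682 peaks in siRNA-labelled libraries 1 to 3 and 47789, 49653 and 50047 in NC-labelled libraries 1 to 3. The most frequent background value solved from each list was lower in every siRNA-labelled library (0.475 to 0.538 fragments) than in every NC-labelled library (0.621 to 0.673). Coverage and group therefore cannot be told apart in unscaled values.

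Of the cell type markers, Acta2, Tagln, Smtn, Cald1 and Tpm2 of 7 smooth muscle genes had a peak within 1000 bp of a gene end in every library. Cnn1 had one in 1 siRNA-labelled and 3 NC-labelled libraries, and Myh11 in none. Gene-end peaks in every library were found at Cd68 and Cd14 of 7 macrophage genes, at 0 of 6 endothelial genes and at Dcn of 6 fibroblast genes. These counts are to be read against 44% of all 21887 protein-coding genes with such a peak in every library. No library had one at the leukocyte gene Ptprc, at Adgre1, Itgam and Lyz2 of the macrophage genes, or at Pecam1, Cdh5, Vwf and Tie1 of the endothelial genes. Csf1r, a macrophage gene, had one in 1 siRNA-labelled library, and of the endothelial genes Tek had one in 2 siRNA-labelled and 2 NC-labelled libraries and Kdr in 1 NC-labelled library. Per library, the number of smooth muscle genes with a gene-end peak was 5 to 6 against 6, of macrophage genes 2 to 3 against 2, of endothelial genes 0 to 1 against 0 to 2, and of fibroblast genes 1 against 1 (siRNA-labelled against NC-labelled). A peak at a gene end is not a transcript level, and the part of other cell types in the results was not tested.

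Each deposited peak carries a fold enrichment, which sets its summit against the background of that library, and the −log10 of its q-value. Both are the authors' own values, and they serve here to describe peaks within a list. The percentile of a peak is its rank by −log10 q within its own list. The number of DNA fragments at a summit, called summit fragments, was recovered as a whole number from the fold and the p-value of the peak. For comparison between libraries these were divided by a size factor (median of ratios over 29602 regions with a peak in all 6 libraries), which gives scaled summit fragments. The absence of a peak means that the peak caller's threshold was not passed and not that no fragment was there.

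The promoters of 4 members are shown because the regions at or near these starts had a peak in every library (Ctsd and Ctsz), in 3 (Cst3) or in 1 (Ctss). For Ctsz the summits lay 935 to 1094 bp downstream of the start. Sequences are from RefSeq (GRCm38.p6), where 7 of the 10 genes had an entry, and each is the 250 bases before the annotated start, 5′ to 3′. Capitals mark matches, on either strand, to any of 9 motifs that were searched.
Ctsd: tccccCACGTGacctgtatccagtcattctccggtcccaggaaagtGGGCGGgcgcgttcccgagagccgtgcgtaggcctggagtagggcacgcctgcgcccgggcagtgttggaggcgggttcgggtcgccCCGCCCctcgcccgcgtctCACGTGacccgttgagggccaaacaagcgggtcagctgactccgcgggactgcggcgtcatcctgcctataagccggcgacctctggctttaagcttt
Ctsz: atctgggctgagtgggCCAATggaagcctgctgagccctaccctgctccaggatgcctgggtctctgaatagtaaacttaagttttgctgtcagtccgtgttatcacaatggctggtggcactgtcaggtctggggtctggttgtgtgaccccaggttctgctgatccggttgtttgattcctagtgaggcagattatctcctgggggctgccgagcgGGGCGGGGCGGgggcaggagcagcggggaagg
Cst3: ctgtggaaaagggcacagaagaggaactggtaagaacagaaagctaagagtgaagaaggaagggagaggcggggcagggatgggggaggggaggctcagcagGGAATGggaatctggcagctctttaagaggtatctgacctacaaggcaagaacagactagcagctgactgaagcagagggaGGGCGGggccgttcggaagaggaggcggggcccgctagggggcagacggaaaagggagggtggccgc
Ctss: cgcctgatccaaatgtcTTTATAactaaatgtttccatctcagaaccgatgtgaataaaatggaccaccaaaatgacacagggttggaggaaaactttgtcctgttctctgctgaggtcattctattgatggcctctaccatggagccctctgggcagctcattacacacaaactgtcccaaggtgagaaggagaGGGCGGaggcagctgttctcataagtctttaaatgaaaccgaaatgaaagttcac

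These sequences lie on the minus strand of chr7:142387828-142388077 for Ctsd, chr2:174439040-174439289 for Ctsz and chr2:148875513-148875762 for Cst3, and on the plus strand of chr3:95526536-95526785 for Ctss. For Ctsl and Plaur, whose start lies inside the longest annotated span of the gene, a 30-base site is shown around a single match. Both windows hold other matches, which are given below. The Ctsl site (chr13:64370739-64370768, minus strand) surrounds an E-box core, and the Plaur site (chr7:24462402-24462431, plus strand) an AP-1 motif.
Ctsl: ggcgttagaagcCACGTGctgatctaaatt
Plaur: aacccctggagcTGACTCActctttagcaa

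The search covered both strands of windows of 300 bases, from 250 before to 50 after the start. ATTAAA, the core of the Arid3a motif, was found in 1 of the 7 members (Ctsl, bases -89 to -84 from the start), against 13.9% of all 32817 promoters of the table. CACGTG, the E-box core bound by TFEB, USF and MYC factors, was found in Ctsd (bases -245 to -240 and -98 to -93) and Ctsl (-236 to -231), against 7.15% of promoters. The AP-1 motif TGACTCA was found in Plaur alone of the 7 (-69 to -63), against 5.2%. GGGCGG, the GC box, was held by Cst3, Ctsd, Ctss, Ctsz and Plaur, against 35.6% of promoters. CCAAT was held by Ctsz (37.4% of promoters), TATAAA by Ctss (13.6%) and the TEAD motif GGAATG by Cst3 (14.7%). The CRE TGACGTCA (1.79%) and the CArG box (1.63%) were in none of the 7, and Ctsk held none of the 9 motifs. GGGCGG matches overlap each other in Ctsz and in Plaur. These matches are letters in a window and not sites of binding.

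Many regions around the protease genes were shared by every library. A peak in all 6 libraries was found at 23 of the 46 regions (50%), against 37.3% of all union regions. A further 10 regions (21.7%) had a peak in 1 library only, against 30.2% of all regions, and the other 13 had one in 2 to 5 libraries. By gene, the windows of Plat (5 regions), Ctsb, Plau and Plaur (4 each), Ctsd and Ctsz (2 each), and Ctsk and Ctsl (1 each) held regions shared by all 6 libraries. Those of Ctss and Cst3 held none. A gene-end peak in every library was found at 8 of the 10 genes, against 44% of 21887 protein-coding genes, and 8 had a shared region within 10 kb, against 62.4%. Protein-coding genes had a median of 1 shared region in the same window (quartiles 0 and 2).

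**Figure D1:**
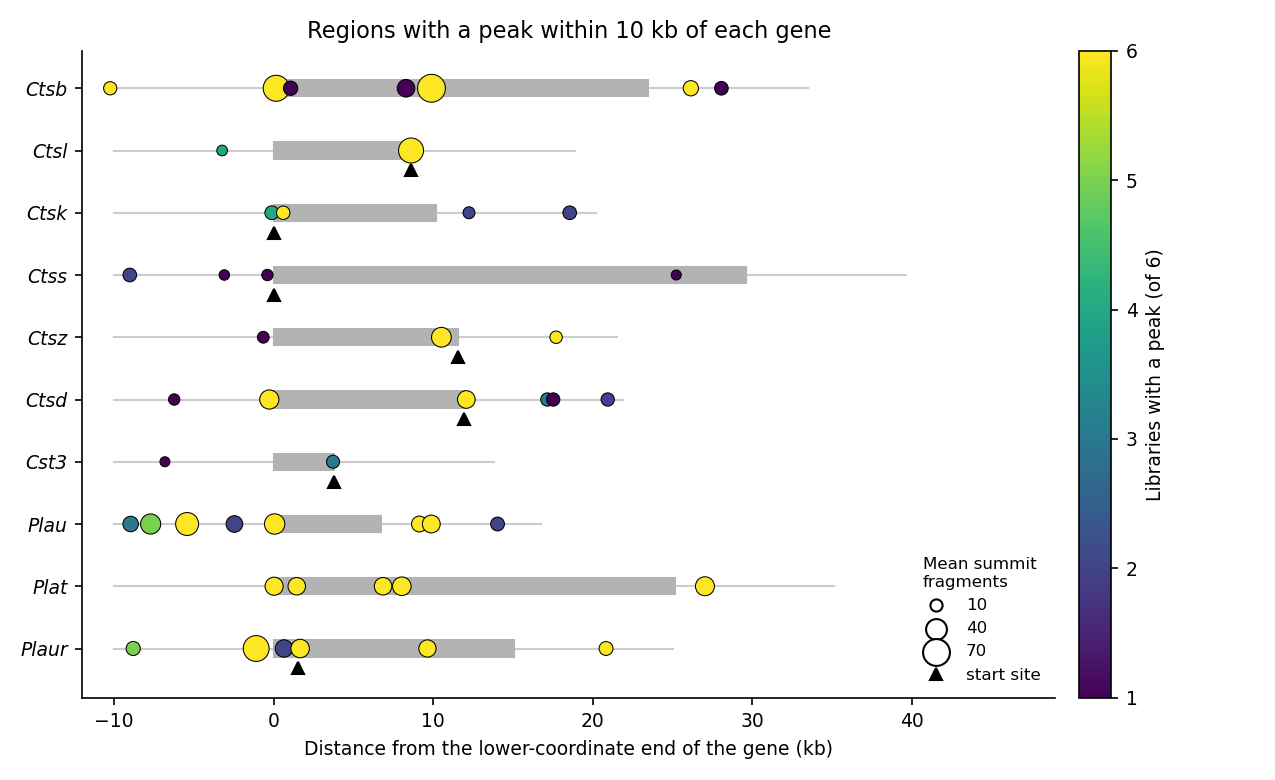
Positions of the 46 regions around the 10 genes (the region between Ctsk and Ctss is drawn for both), as the distance in kb of the median summit from the lower-coordinate end of the gene (grey bar: gene body; thin line: 10 kb either side; triangle: annotated start where known). Point area follows the mean summit fragments over libraries with a peak, and colour the number of libraries with a peak. Ctsb, Ctsl and Plaur hold the largest points, and Plat is the gene whose 5 regions all have a peak in 6 libraries.

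**Figure D2:**
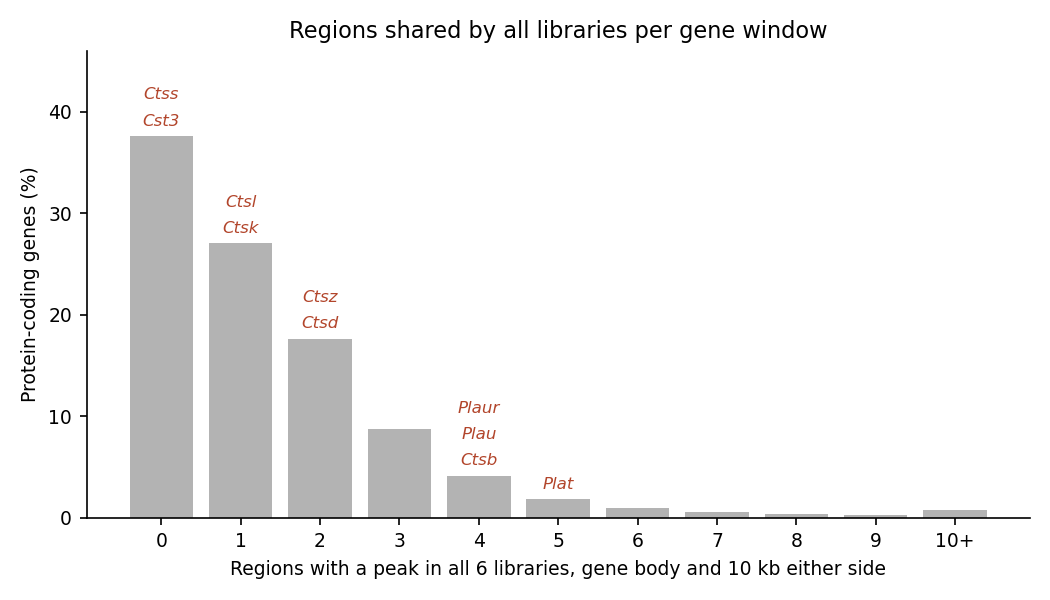
Share of 21887 protein-coding genes (percent, bars) by the number of regions with a peak in all 6 libraries within the gene body and 10 kb either side. The gene names stand above the bar of their own count, from 0 for Ctss and Cst3 to 5 for Plat, against a median of 1.

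Among the cysteine cathepsins, Ctsb and Ctsl had some of the strongest peaks of each list. Cathepsin B, a lysosomal cysteine protease that many cells also secrete, is encoded on chromosome 14 from 63122462 to 63145923. A region over its lower-coordinate end (63122212 to 63123198) held 63, 52 and 50 summit fragments in siRNA-labelled libraries 1 to 3, against 70, 77 and 79 in NC-labelled libraries 1 to 3. Its fold was 12.4, 10.5 and 10.8 in the siRNA-labelled libraries against 10.6, 11.9 and 12.6 in the NC-labelled libraries, and −log10 q was 35.1 to 47.4 against 47.0 to 59.0. In every list this peak ranked at percentile 90.5 or above. Unscaled, every siRNA-labelled library lay below every NC-labelled one. After scaling the groups overlapped (50.7 to 76.5 against 62.7 to 74.6), with a log2 difference of -0.16 (SE 0.14, limma adjusted p = 0.711). The summits of the 6 libraries lay within 99 bp of each other.

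A region inside Ctsb (63131845 to 63132788, median summit 9888 bp from the lower end) was the highest of the gene. It held 58, 80 and 71 summit fragments in the siRNA-labelled libraries, against 81, 91 and 74 in the NC-labelled libraries. The scaled values overlapped, at 70.4, 87.4 and 72.0 against 72.6, 78.2 and 69.9, with a log2 difference of 0.05 (SE 0.12, limma adjusted p = 0.923). Fold was 8.06 to 10.5 in the siRNA-labelled libraries against 8.06 to 8.73 in the NC-labelled libraries, below the fold at the gene end in every library. The other shared regions of the window were weaker, at 10 to 13 against 14 to 15 fragments for the one at -10249 bp from the lower end, and at 13 to 17 against 15 to 31 above it, inside the neighbouring gene Fdft1. Another 3 regions of the window had a peak in NC-labelled library 2 only.

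Cathepsin L, a cysteine protease of the lysosome with strong elastin-degrading activity, is encoded on chromosome 13 from 64361890 to 64370772. The region over its start (64370057 to 64370758) held 55, 51 and 51 summit fragments in the siRNA-labelled libraries, against 69, 62 and 72 in the NC-labelled libraries. It had the highest fold of all 46 regions in each library, at 16.9, 16.8 and 14.5 against 15.8, 15.7 and 16.9. Its −log10 q was 51.5, 48.3 and 43.9 against 60.3, 54.6 and 64.9, at percentile 93.5 or above in every list. The summits lay 7, 18 and 55 bp downstream of the annotated start in the siRNA-labelled libraries and 25, 21 and 21 bp downstream in the NC-labelled libraries. The E-box core shown above lies inside the region, upstream of the start. Scaled fragments overlapped between the groups (51.7 to 66.8 against 53.3 to 68.0), and the log2 difference was -0.07 (SE 0.14, limma adjusted p = 0.901). Beyond the other end of the gene, a weak region (64358421 to 64358861) had a peak in 1 siRNA-labelled library, with 5 fragments, and in all 3 NC-labelled libraries, with 6 to 8.

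Cathepsin K, the collagen-degrading cysteine protease best known from osteoclasts, had weak peaks. The gene lies on chromosome 3 from 95499210 to 95509387. A region just inside it (95499573 to 95500308, median summit 595 bp downstream of the start) was the only one shared by all libraries, at 11, 12 and 10 summit fragments in the siRNA-labelled libraries, against 18, 18 and 12 in the NC-labelled libraries. Scaled, these were 13.4, 13.1 and 10.1 against 16.1, 15.5 and 11.3, which overlap (log2 difference -0.21, SE 0.23, limma adjusted p = 0.797). The region over the start itself (95498914 to 95499290) had a peak in siRNA-labelled libraries 2 and 3, with 11 and 18 fragments, and in NC-labelled libraries 2 and 3, with 17 and 12. A weak region above the gene had a peak in siRNA-labelled library 3 and in NC-labelled library 2, with 10 and 9 fragments. The regions at the start ranked no higher than percentile 52.7 in any list, below the strongest regions of Ctsb and Ctsl.

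Cathepsin S, an elastin-degrading cysteine protease of antigen-presenting cells, had no region that 3 libraries shared. The gene lies on chromosome 3 from 95526786 to 95556405, next to Ctsk. A region between both genes (95517604 to 95517908) had a peak in siRNA-labelled libraries 1 and 3, with 10 and 18 summit fragments at a fold of 5.24 and 8.90, and in no other library. It is the highest region of the Ctss window. Near the start of Ctss (95526203 to 95526581), siRNA-labelled library 1 had a peak of 8 fragments and no other library had one. The 2 remaining regions, at -3095 bp from the start and inside the gene, had 6 and 5 fragments in 1 siRNA-labelled library each. No NC-labelled library had a peak anywhere in the window of Ctss, whereas the siRNA-labelled libraries had 2, 1 and 2, all but 1 of them below 11 fragments.

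Cathepsin Z, a carboxypeptidase of the same family, lies on chromosome 2 from 174427494 to 174439039. The region at its start was wide (174437717 to 174439262), with the median summit 1034 bp downstream of the start and not over the promoter shown above. It held 33, 38 and 25 summit fragments in the siRNA-labelled libraries, against 41, 39 and 36 in the NC-labelled libraries. Scaled fragments were 40.1, 41.5 and 25.3 against 36.7, 33.5 and 34.0, so that siRNA-labelled library 3 was the lowest and libraries 1 and 2 the highest of the 6 (log2 difference 0.00, SE 0.18, limma adjusted p = 0.996). A weaker region (174444962 to 174445502), 6156 bp upstream of the start, held 10, 10 and 13 against 9, 11 and 11 fragments. Its scaled values did not overlap (12.1, 10.9 and 13.2 against 8.1, 9.5 and 10.4), yet it did not pass the test (log2 difference 0.35, SE 0.24, limma adjusted p = 0.617). At the other end of Ctsz, next to Nelfcd, a peak of 9 fragments was found in NC-labelled library 2 only.

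Cathepsin D, the main aspartic protease of the lysosome, had a shared region at each end of the gene. It lies on chromosome 7 from 142375910 to 142387827 and is transcribed from its upper end. The region over the start (142386668 to 142388306) held 18, 26 and 32 summit fragments in the siRNA-labelled libraries, against 24, 29 and 34 in the NC-labelled libraries. Except in siRNA-labelled library 1, whose highest summit lay 960 bp downstream of the start, the summits lay between -187 and -140 bp from it, inside the sequence shown above. Scaled fragments overlapped (21.8 to 32.4 against 21.5 to 32.1, log2 difference 0.07, SE 0.19, limma adjusted p = 0.933).

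The region at the end of Ctsd transcription (142375369 to 142376321) was the higher of both. It held 28, 37 and 36 summit fragments in the siRNA-labelled libraries, against 33, 35 and 29 in the NC-labelled libraries, with summits within 22 bp of each other. After scaling, every siRNA-labelled library lay above every NC-labelled one, at 34.0, 40.4 and 36.5 against 29.6, 30.1 and 27.4. The log2 difference was 0.34 (SE 0.17), and the region did not pass the test (limma adjusted p = 0.447). The deposited fold was 7.81, 9.20 and 8.39 against 7.84, 8.09 and 7.73, with siRNA-labelled library 1 inside the NC-labelled range. The other 4 regions of the window had peaks in 1 to 3 libraries, with 8 to 15 fragments.

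Cystatin C, encoded by Cst3 on chromosome 2 from 148871722 to 148875512, had no shared region. The region over its start (148875085 to 148875616) had a peak in siRNA-labelled library 3, with 8 summit fragments, and in NC-labelled libraries 1 and 2, with 15 and 14. These peaks ranked at percentile 13.9 against 43.1 and 41.8 of their lists. A peak of 5 fragments, at -6819 bp from the lower end of the gene, was found in siRNA-labelled library 1 only.

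**Figure D3:**
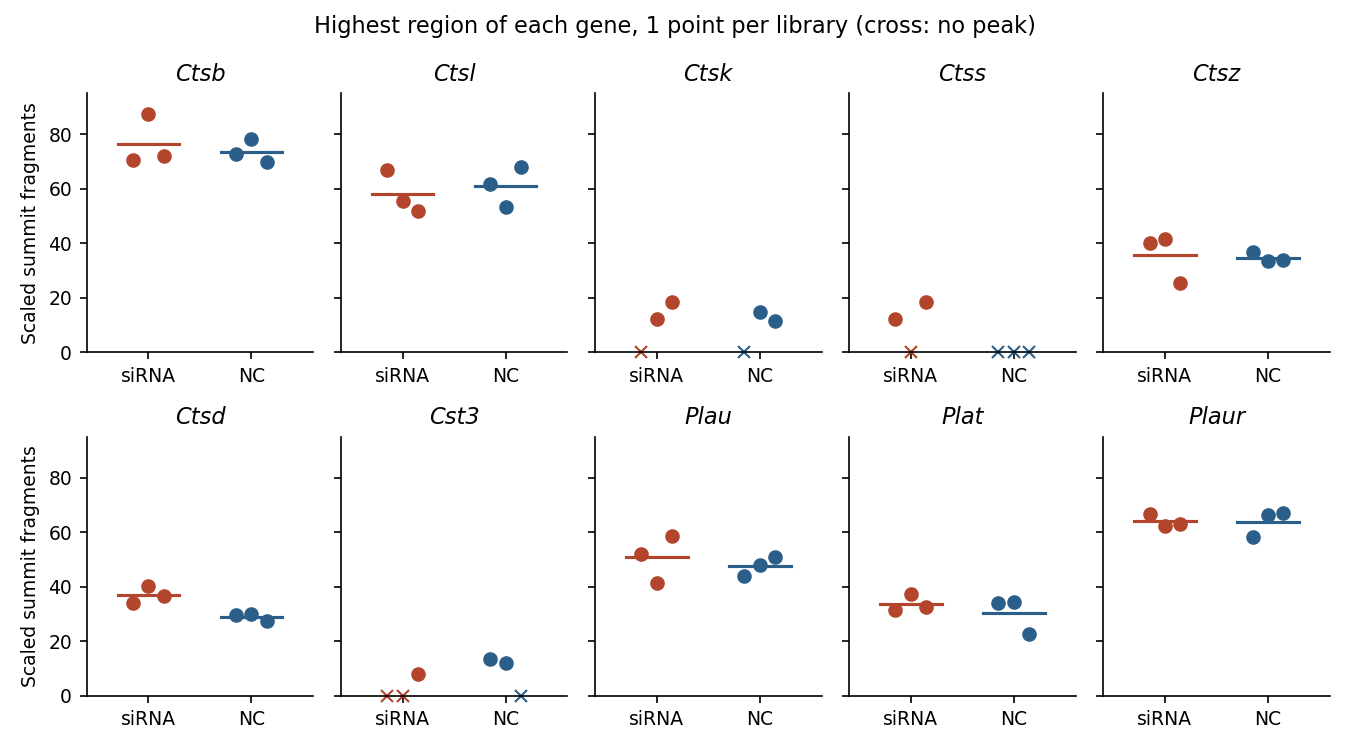
Scaled summit fragments in each library at the region of each gene with the highest mean of summit fragments, siRNA-labelled libraries on the left and NC-labelled libraries on the right of each panel (points in the order of libraries 1, 2 and 3; line: mean where all 3 libraries had a peak; cross: no peak). The groups overlap at every gene with a peak in all 6 libraries except Ctsd, where the siRNA-labelled libraries lie at 34.0 to 40.4 and the NC-labelled libraries at 27.4 to 30.1.

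Of the plasminogen system genes, Plau stood in a cluster of regions. Urokinase is encoded on chromosome 14 from 20836662 to 20843388, and no other protein-coding gene lies in its window. The window held 8 regions in 26.7 kb, 4 of them shared by all libraries, which is 1.5 shared regions per 10 kb. This density exceeded that of 99.3% of protein-coding genes. The region over the lower-coordinate end (20836112 to 20837305) held 25, 33 and 37 summit fragments in the siRNA-labelled libraries, against 45, 47 and 41 in the NC-labelled libraries. Here every siRNA-labelled library stayed below every NC-labelled one after scaling too, at 30.3, 36.1 and 37.5 against 40.3, 40.4 and 38.7. The log2 difference was -0.20 (SE 0.16), and the region did not pass the test (limma adjusted p = 0.688). The fold of this region was 5.11, 6.63 and 6.94 against 6.43, 6.70 and 7.07, and −log10 q was 9.63 to 18.8 against 21.0 to 22.8.

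The highest Plau region lay outside the gene, with its median summit at -5429 bp from the lower end (20830987 to 20831507). It held 43, 38 and 58 summit fragments in the siRNA-labelled libraries, against 49, 56 and 54 in the NC-labelled libraries. Its fold was 6.47, 5.47 and 7.39 against 5.11, 5.75 and 5.78, below that of the Ctsl start in every library. The −log10 q was 15.2 to 29.9 against 18.1 to 23.2. Scaled, siRNA-labelled library 3 was the highest and library 2 the lowest of the 6 (52.2, 41.5 and 58.8 against 43.9, 48.1 and 51.0), with a log2 difference of 0.08 (SE 0.15, limma adjusted p = 0.896). A neighbour at -7714 bp (20828713 to 20829089) had a peak in every library except siRNA-labelled library 1. It held 28 and 30 fragments in siRNA-labelled libraries 2 and 3, against 48, 45 and 34 in the NC-labelled libraries. Above the gene, a pair of adjacent shared regions (20845523 to 20846176 and 20846234 to 20846875) held 15 to 22 against 20 to 23 fragments and 18 to 28 against 28 to 38 fragments. The other 3 regions had peaks in 2 or 3 libraries.

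Tissue plasminogen activator is encoded by Plat on chromosome 8 from 22757722 to 22782848. All 5 regions of its window had a peak in all 6 libraries, a count higher than that of 95.2% of protein-coding genes. The region over the lower-coordinate end (22757233 to 22758487) held 28, 24 and 24 summit fragments in the siRNA-labelled libraries, against 33, 31 and 33 in the NC-labelled libraries. After scaling the groups overlapped (34.0, 26.2 and 24.3 against 29.6, 26.6 and 31.2, log2 difference -0.06, SE 0.18, limma adjusted p = 0.948). The summits of this region spread over 715 bp, the widest spread of any gene-end region of the set except that of Ctsd. The highest region lay beyond the upper end, with its median summit 1905 bp from it (22783867 to 22785088). It held 26, 34 and 32 fragments in the siRNA-labelled libraries, against 38, 40 and 24 in the NC-labelled libraries (log2 difference 0.17, SE 0.18, limma adjusted p = 0.784).

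Inside Plat lay the region with the lowest log2 difference of the set, which is named here after its values were seen. This region (22763993 to 22764842, median summit 6853 bp from the lower end) held 16, 17 and 23 summit fragments in the siRNA-labelled libraries, against 44, 27 and 33 in the NC-labelled libraries. The deposited fold was 3.68, 4.36 and 5.16 against 8.02, 4.65 and 6.19. Scaled fragments were 19.4, 18.6 and 23.3 against 39.4, 23.2 and 31.2, so that the groups met at siRNA-labelled library 3 and NC-labelled library 2. The log2 difference was -0.56 (SE 0.20), with an unadjusted p of 0.00601, and limma's adjusted p of 0.219 did not pass the threshold. It ranged from -0.76 to -0.39 when 1 library was left out. The next region (22765394 to 22766072) held 31, 21 and 30 against 34, 38 and 30 fragments, with scaled values of 23.0 to 37.6 against 28.3 to 32.6. The last of the 5, near the lower end (22758900 to 22759382), differed more within groups than between them. It held 19, 34 and 27 against 23, 36 and 20 fragments (log2 difference 0.31, SE 0.20, limma adjusted p = 0.589).

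The urokinase receptor is encoded by Plaur on chromosome 7 from 24460937 to 24475970, with an annotated start at 24462483. Its highest region lay upstream of that start (24459536 to 24460301, median summit at -2645 bp), before the lower end of the gene. It held 55, 57 and 62 summit fragments in the siRNA-labelled libraries, against 65, 77 and 71 in the NC-labelled libraries, and fold was 10.1, 9.08 and 9.08 against 8.34, 8.62 and 8.93. The 3 NC-labelled libraries were above the siRNA-labelled ones only before scaling. Scaled values overlapped closely (66.8, 62.3 and 62.9 against 58.2, 66.2 and 67.0), with a log2 difference of 0.01 (SE 0.13, limma adjusted p = 0.993).

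Over the annotated Plaur start itself, a weaker region (24462444 to 24463073) held 24, 27 and 27 summit fragments in the siRNA-labelled libraries, against 29, 41 and 33 in the NC-labelled libraries. Its summits lay 6, 86 and 88 bp against 132, 137 and 313 bp downstream of the start. The AP-1 match shown above lies before that start, at bases -69 to -63, just outside this region. Between both regions, siRNA-labelled library 3 and NC-labelled library 2 had a peak of 27 and 26 fragments. A region inside the gene (24470348 to 24470882) was shared, at 21, 21 and 23 against 30, 34 and 24 fragments, with summits within 27 bp. A further shared region lay at the end of the neighbouring gene Cadm4, with 11 to 17 against 15 to 17 fragments. The region farthest below the gene had a peak in every library except siRNA-labelled library 2, at 12 and 15 against 20, 16 and 14 fragments.

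**Figure D4:**
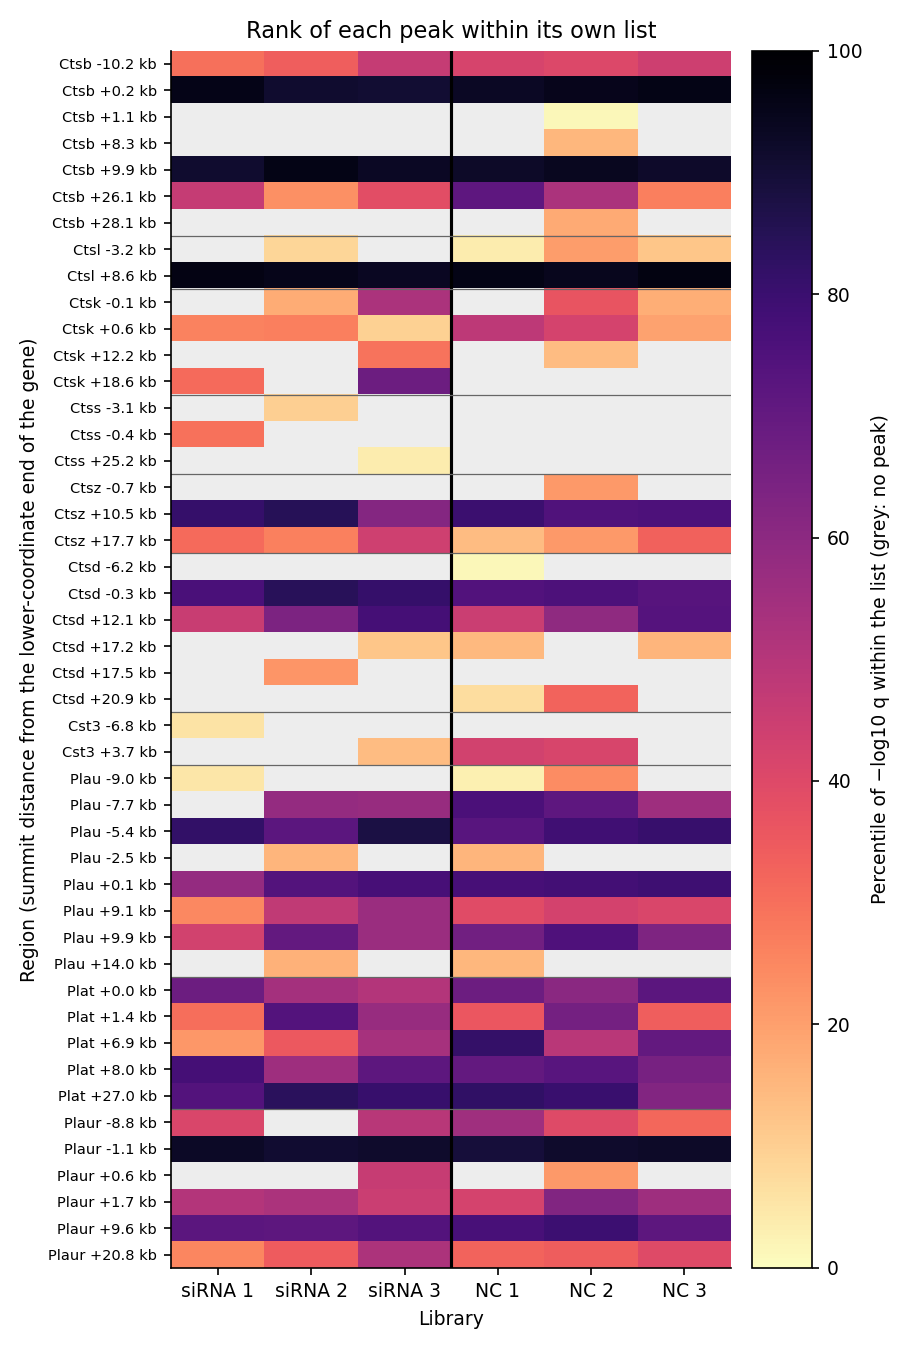
Percentile of −log10 q within its own list of each peak at the 46 regions (rows, labelled by gene and by distance of the summit from the lower-coordinate end) in each library (columns, siRNA-labelled left and NC-labelled right; grey: no peak). Darker cells rank higher. The regions at the ends of Ctsb and Ctsl, inside Ctsb and upstream of Plaur stay at or above percentile 89.4 in all 6 libraries, and the Ctss rows are grey in every NC-labelled library.

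No region of the set separated the groups completely by presence. Of the 46 regions, 0 had a peak in all siRNA-labelled and no NC-labelled libraries, against 0.342% of all union regions, and 0 had the reverse, against 0.608%. The largest differences in presence were 2 libraries. They were the region between Ctsk and Ctss (2 siRNA-labelled and 0 NC-labelled libraries), the weak region beyond Ctsl (1 and 3) and a region at -9019 bp from the start of Ctsd (0 and 2). Without siRNA-labelled library 2 the regions near Ctss and Ctsl had a peak in every remaining library of 1 group and in none of the other, and without NC-labelled library 3 the one near Ctsd did. The number of peaks in the windows was 31.3 ± 2.1 (SD, n = 3) in the siRNA-labelled and 33.7 ± 3.5 (SD, n = 3) in the NC-labelled libraries (two-sided exact permutation p = 0.4, where 0.1 is the smallest possible). Peaks covered 15161, 14671 and 16677 bp of the windows in the siRNA-labelled libraries, against 18664, 19910 and 16584 bp in the NC-labelled libraries, with a mean peak width of 477 to 542 bp against 553 to 569 bp. The two-sided exact permutation p for covered length was 0.2 (n = 3 each). Since 0.1 is the smallest p that 3 against 3 libraries allow, neither test could pass 0.05. Over the whole lists, every siRNA-labelled library was below every NC-labelled one in both measures. Mean peak width was 467 to 514 bp in the siRNA-labelled libraries against 549 to 573 bp in the NC-labelled libraries. Covered length was 22.5 to 25.4 Mb against 27.4 to 27.7 Mb. In the windows, mean width was split in this way but covered length overlapped.

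In the test of scaled summit fragments, none of the 23 shared regions of the set passed. The limma test over all 29602 regions shared by the 6 libraries called 37 lower (0.125%) and 27 higher (0.0912%) in the siRNA-labelled libraries at an adjusted p under 0.05. Of all calls 57.8% were lower, but with scaling by the background of each list it was 10.1%, with 8 regions called lower and 71 higher. Leaving out siRNA-labelled library 1 gave 217 lower and 156 higher, and leaving out any NC-labelled library or siRNA-labelled library 2 gave 5 to 8 lower and 5 to 11 higher. None of the 23 passed in any of these settings. At an unadjusted p under 0.05 there was 1 of 23, the Plat region described above (4.35%), against 11.3% of all regions tested. Every siRNA-labelled library was below every NC-labelled one at 1 region, over the lower end of Plau (4.35%, against 8.17% of all regions). The opposite was found at 2 regions, at the end of Ctsd and upstream of Ctsz (8.70%, against 7.64%). The median log2 difference of the 23 regions was -0.03, with 12 below 0, 10 above and 1 at 0.00, and the median over all regions was 0.00. The standard errors of the 23 regions were 0.12 to 0.24. At this precision even the log2 difference of -0.56 inside Plat did not pass the adjusted threshold, so a missed threshold does not show that the groups are alike.

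**Figure D5:**
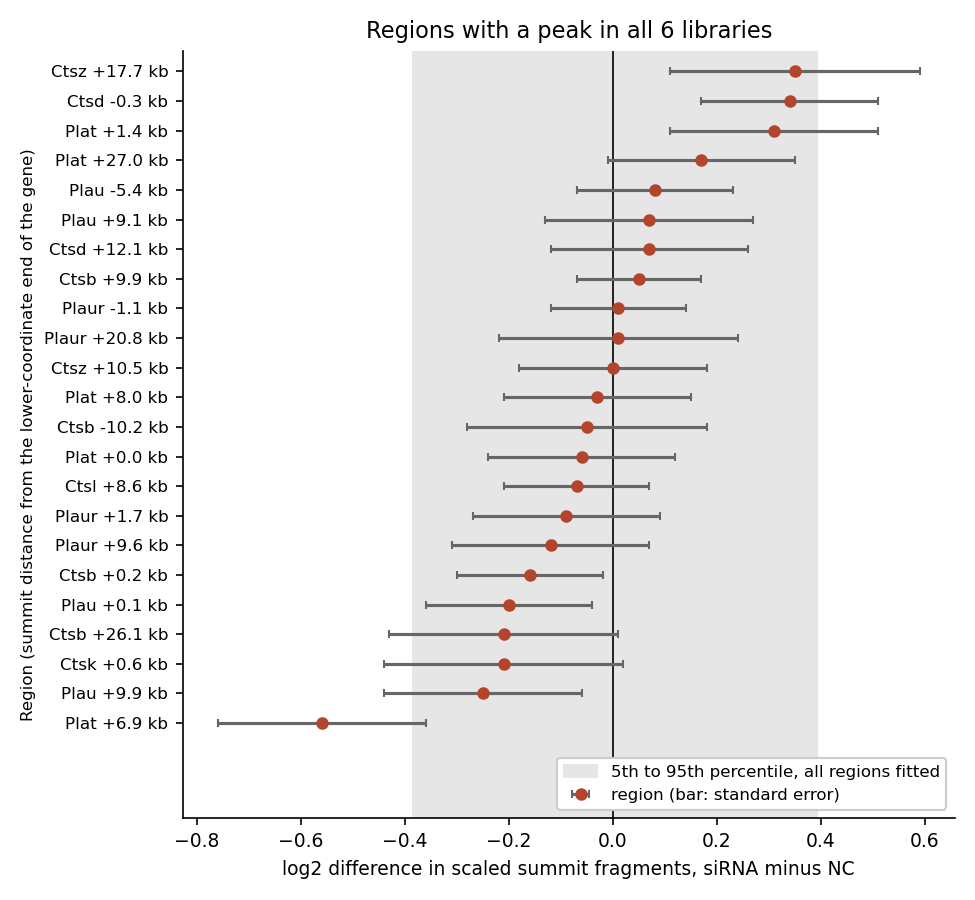
Log2 difference in scaled summit fragments, siRNA-labelled minus NC-labelled, at the 23 regions with a peak in all 6 libraries (points; bars: standard error from limma), sorted by value. The grey band spans the 5th to the 95th percentile of all 29602 regions fitted (-0.38 to 0.39). The region inside Plat at -0.56 is the 1 point outside the band, and its adjusted p was 0.219.

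Other genes of these pathways were described by gene-end peaks only, in lists drawn up by function, and each count of genes with such a peak in every library is to be read against 44% over all 21887 protein-coding genes. Among 10 other cathepsins and related lysosomal proteases, 6 had a gene-end peak in every library. These were Ctsa, Ctsc, Ctsh, Ctso, the asparaginyl endopeptidase gene Lgmn and the tripeptidyl peptidase gene Tpp1. Ctsf had one in 2 siRNA-labelled and 2 NC-labelled libraries, and Ctse, Ctsg and Ctsw, whose products are known from epithelial or blood cells, had none. None of the 8 placental cathepsin genes (Cts3, Cts6 and Cts7 among them), which lie on the same chromosome as Ctsl, had a peak in any library. In the list of 12 cystatins and other protease inhibitors, the intracellular cystatin gene Cstb and Cst6 had peaks in every library, Kng1 had one in 1 siRNA-labelled library only, and 9 genes had none in any library. Among these 9 were Ahsg and the cystatin genes Cst8, Cst9, Cst10, Cst11, Cst12 and Cst13.

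Of 12 further genes of the plasminogen system, 5 had a gene-end peak in every library, a share near that 44%. Among them were the plasminogen receptor genes S100a10 and Eno1, the clearance receptor gene Lrp1, and the collagen receptor gene Mrc2. Anxa2, which encodes the partner of S100a10 in binding plasminogen, had one in 1 siRNA-labelled and 3 NC-labelled libraries, and Plgrkt and Serpine2 each in 1 and 2. Plg, which encodes the substrate, had none, like Serpinb2, Serpinf2 and Vtn. Of 12 genes of lysosomal biogenesis and sorting, 9 had a peak in every library (44% of all protein-coding genes did), among them the proton pump gene Atp6v0d1, Tfeb, Tfe3 and Mitf, the transcription factors that bind the E-box core of lysosomal gene promoters, and the mannose 6-phosphate receptor genes M6pr and Igf2r. Sort1 (1 and 2 libraries), Lamp1 (2 and 3) and Lamp2 (2 and 2) were the exceptions. With at most 3 libraries in a group, these differences in presence were not tested.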

How the data were processed

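Arid3a CUT&Tag was deposited as 1 peak list per library. The submitters' processing notes name Bowtie2, Picard, MACS2 and the build mm10, without a role for each; versions and settings are not given in the labels. For each peak the authors deposited a fold enrichment at the summit (a ratio), −log10 p-value and −log10 q-value columns, a score that follows −log10 q, and the summit offset.

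From fold and p-value, with a pseudocount of 1, whole summit fragments and a background were solved for 100.0% of the peaks of every list (tolerance 0.0001); at most 0.151% of a list had a second solution, and the closest was taken. In a region with several peaks of a library the highest was used. limma 3.58.1 (R 4.3.3) was run with a trend on log2(scaled fragments + 1) with Benjamini-Hochberg adjustment. Solver and test were checked on simulated data only. The solver data came from the same formula that the solver inverts, and the test data held counting noise without further spread between libraries. Neither check shows that the deposited values follow these models. Group means of single values were compared with two-sided exact permutation tests over 20 assignments. Over strong regions siRNA-labelled libraries 2 and 3 differed less (chi-square per region 0.776) than library 1 differed from them (1.30 and 1.26). Pairs of NC-labelled libraries stood at 0.854, 0.795 and 0.877. Against NC-labelled libraries 1, 2 and 3, siRNA-labelled library 1 stood at 1.298, 1.515 and 1.168. The lists of siRNA-labelled libraries 2 and 3 shared 57.0% of their covered length, as other pairs did (55.7 to 61.4%). The 6 libraries were therefore kept apart, and averaging siRNA-labelled libraries 2 and 3 was an alternative.

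Members and lists were chosen with earlier results of these data known. Regions were named if they were the highest of a gene, lay at a gene end, or had a peak in every library of 1 group and none of the other; other regions were named after their values were seen. In the further lists up to 3 genes with the largest difference in presence were to be named, and the others were named after their values were seen. Each library was also left out in turn, and stricter peaks, other windows, other merging, other scalings and a replicate block were tried.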

Additional observations from a re-analysis of the deposited data

How the results depend on the processing

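The count of regions called in the summit fragment test over all regions depended on the setting, while 0 of the 23 shared regions of the set (18 with the minimum mean) passed in any setting run. Against 37 lower and 27 higher, scaling by background gave 8 and 71, averaging siRNA-labelled libraries 2 and 3 gave 22 and 10, and a minimum mean of 20 summit fragments gave 55 and 51 (fewer regions fitted). With 1 library left out the calls ranged from 5 to 217 lower and from 5 to 156 higher, with 217 and 156 without siRNA-labelled library 1, 8 and 6 without library 2, 40 and 16 without library 3, and 5 and 5, 6 and 11, and 5 and 7 without NC-labelled libraries 1, 2 and 3. The replicate block gave 83 lower and 63 higher. Deviations from the group means correlated at 0.042, 0.033 and -0.022 between same-numbered libraries, against -0.076 to 0.049 between the others. The labels do not say whether the numbers pair the libraries. With so few fragments at a summit, these correlations cannot decide it.

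With gene bodies only, there were 20 regions, 14 of them shared by all libraries, and with 50 kb either side 104 and 49. With 50 kb the difference in peaks per library had the opposite sign, 0.7 (-2.3 with 10 kb, exact permutation p = 0.9). Leaving out 1 library gave 0 to 1 regions with a peak in every siRNA-labelled and no NC-labelled library, and 0 to 1 with the reverse.

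Log2 differences near 0 changed sign in some settings, and the cause was not tested. The start of Ctsl turned to 0.03 with background scaling and the lower end of Plat to 0.04, or to 0.01 with libraries 2 and 3 averaged. With 1 library left out the ranges were -0.04 to 0.11 inside Ctsb, -0.17 to 0.01 at the start of Ctsl, -0.05 to 0.23 at that of Ctsd, -0.12 to 0.23 at that of Ctsz, -0.03 to 0.22 below Plau, -0.19 to 0.04 at the lower end of Plat, -0.02 to 0.27 above Plat and -0.06 to 0.04 upstream of Plaur. The difference inside Plat kept its direction in every setting (lowest limma adjusted p 0.165, with the replicate block). The same held, in every setting that fitted them, for the lower ends of Ctsb and Plau and the end of Ctsd transcription. It also held for the shared regions upstream of Ctsz and just inside Ctsk. Over all alternatives 269 values were recomputed. Of these, 226 held their direction and call or kept their count within 1.5 times. Another 25 counts moved by over 1.5 times or away from 0, and 18 values changed sign. A held call means only that 0.05 was again not passed, as no tested value of the set passed it in any setting. Summits of 5 to 91 fragments limit the precision of each value.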
